A study of Rattus norvegicus with 8 samples.

Results

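The genes described here encode the proteins of the cytosolic ribosome, together with annotated copies of those genes, in NR8383 cells. Members are the array probes assigned to a rat RefSeq transcript of Rplp0, Rplp1, Rplp2, Rpsa or a gene whose symbol is Rpl or Rps followed by a digit; Rps6k kinases and Rps19bp1 were left out. This gave 207 probes for 93 genes, out of 45598 probes for 39506 genes or unnamed accessions on the array. They comprise 75 parent genes (45 of the large and 30 of the small subunit), 12 copies whose symbol ends in l plus a number such as Rps19l3, 4 paralogues (Rpl22l1, Rpl3l, Rps27l and Rps4y2) and 2 pseudogenes. The set was selected on processed signals of this same dose comparison, whose results were known, so every difference, count and adjusted p of a member below is a description.

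NR8383 is a macrophage line started from cells washed out of a rat lung. One group of 4 cultures received zinc oxide (ZnO) at 16 µg/mL for 4 h and is described in the sample labels as grown for 200 passages. The other 4 cultures received ZnO at 4 µg/mL for 4 h and are described as grown for 20 passages. The submitters call the 4 samples of a dose biological replicates without saying how they were raised, so p-values measure only the spread between these samples, and untreated cells were not analysed here. Each dose had its own slide, so an effect of dose cannot be told apart from one of slide, scan or passage, and the passage numbers themselves could not be checked. Of 12 macrophage markers 9 were well above background on all 8 arrays, while Adgre1, Cd163 and Marco were so on none. Epithelial markers (7 listed) reached that on all arrays in 0 cases, as did T cell, B cell and neutrophil markers. By contrast 1 of 5 fibroblast markers (Dcn) and 2 of 3 endothelial markers (Pecam1 and Cdh5) did. The T cell marker Cd3d was well above background on all 4 ZnO 4 arrays and on no ZnO 16 array. The B cell marker Cd79a and the neutrophil marker Mpo had no named probe. The part of any of these in the results was not tested.

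Each ribosome contains a single copy of most of these proteins, so cells usually make them in matched amounts. Their mRNAs typically begin with a C followed by an unbroken stretch of pyrimidines, the terminal oligopyrimidine (TOP) element, through which the mTOR pathway and LARP1 adjust their translation together. Rodent genomes also carry many copies of ribosomal protein genes, most of them thought to have arisen by reverse transcription of the parent mRNA, which leaves the parent's promoter behind.

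Start-site sequences were compared between copies and parents because the copies showed the largest differences between doses by the brightest probe of each gene. RefSeq promoters (assembly GRCr8; 250 bases before to 50 after each annotated start) were matched for 73 of the 93 genes. A run of C followed by at least 5 C or T, on the gene's own strand within 20 bases of the start on either side, was in 2 of 9 copy promoters, against 50 of 60 parent promoters. Such a run was present in 27.7% of all 33469 promoters. The 60 bases shown for each gene end 20 bases after the annotated start, and capitals mark the pyrimidine run where there is one. They lie at chr1:85738092-85738151 (plus strand) for Rps19l3, chr1:89608648-89608707 (plus) for Rps19, chr17:58199306-58199365 (minus) for Rpl27al1, chr1:172974533-172974592 (plus) for Rpl27a, chr10:45862420-45862479 (minus) for Rpl17l5, chr18:70856236-70856295 (plus) for Rpl17, chr7:15237236-15237295 (plus) for Rplp1l1 and chr8:71290853-71290912 (minus) for Rplp1.
Rps19l3: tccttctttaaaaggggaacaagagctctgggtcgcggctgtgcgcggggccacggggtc
Rps19: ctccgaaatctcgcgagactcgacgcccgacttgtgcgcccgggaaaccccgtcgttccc
Rpl27al1: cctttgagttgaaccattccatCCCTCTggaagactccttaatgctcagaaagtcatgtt
Rpl27a: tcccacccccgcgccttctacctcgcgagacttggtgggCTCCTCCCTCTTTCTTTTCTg
Rpl17l5: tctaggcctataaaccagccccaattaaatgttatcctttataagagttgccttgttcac
Rpl17: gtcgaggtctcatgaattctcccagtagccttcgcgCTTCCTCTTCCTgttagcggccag
Rplp1l1: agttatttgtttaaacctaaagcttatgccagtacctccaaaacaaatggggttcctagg
Rplp1: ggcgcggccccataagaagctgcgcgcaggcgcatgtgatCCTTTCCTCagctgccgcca
The run was 20 bases in Rpl27a, against 6 bases in its copy Rpl27al1, and was found in Rplp1 and Rpl17 but not in their copies. In the Rps19 pair neither gene had one within the 20 bases searched on either side of the start, although the Rps19l3 window shows pyrimidines farther upstream. The starts of the copies are those of RefSeq gene models, and the letters alone do not show where transcription begins.

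Levels are log2 processed signals relative to the 75th percentile of each array, and a difference is the mean level at ZnO 16 less that at ZnO 4, given with the standard error (SE) of limma's fit and its adjusted p over all 13464 genes tested. Per array, 31.4% to 39.3% of probes exceeded background clearly. The median difference of all genes was 0.01. Of 7 spike-in probes measured above background on every array, 5 were higher and 2 lower on the ZnO 16 slide after scaling, with differences between -0.68 and 1.62. All 75 parents passed the filter on dim probes, as did 10 of 12 copies and 3 of 4 paralogues. Of the copies Rpl27l2 and Rpl39l5 did not pass, nor did Rps4y2 or either pseudogene (Rps4x-ps1 and Rps7-ps20). In RNA from whole cultures, fewer cells with a transcript and less of it per cell cannot be told apart.

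By the brightest probe of each gene, numbered copies showed the lowest differences of the set. Of the 10 measured, 7 were called lower and 0 higher at an adjusted p under 0.05, where 41.7% of all genes tested were called, 21.9% lower and 19.8% higher. One of the 7, Rps12l4, passed the filter on dim probes only through its ZnO 4 arrays, and 6 copies were called lower when signal on all 8 arrays was required. The median difference was -1.50 over the copies and 0.01 over all genes. In 5 of the 10 copies all ZnO 16 arrays lay below all ZnO 4 arrays, against 21.4% of all genes. These 5 (Rps19l3, Rpl27al1, Rpl17l5, Rplp1l1 and Rpl36al1) each had only 1 probe on the array. Their differences, and their contrasts with the parents, could therefore not be checked with a second probe of the copy.

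Rps19l3 is a copy of Rps19, whose protein is needed to mature the small subunit and is mutated in human Diamond-Blackfan anaemia. It had levels of -2.04, -1.62, -1.99 and -2.24 in ZnO 16 cultures, against 1.88, 1.69, 1.53 and 1.66 in ZnO 4 cultures, a difference of -3.66 ± 0.16 (SE; limma, adjusted p = 1.7e-07). No array of one dose overlapped the other, and the signal at ZnO 16 was 0.079 times that at ZnO 4. The parent Rps19 had 7.41, 8.23, 8.04 and 7.42 in ZnO 16 cultures, against 8.39, 8.63, 8.32 and 8.21 in ZnO 4 cultures. Its doses overlapped through replicate 2 at ZnO 16, and the difference was -0.61 ± 0.21 (adjusted p = 0.0391), a call lost in 8 of 12 fits that left out an array or a replicate number. The difference of the copy minus that of the parent was -3.05. The Rps19 value was the lowest of 5 probes, of which the highest gave -0.06.

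Rpl27al1 and Rpl17l5 were also below the probes that stood for their parents. Rpl27al1 had levels of 1.78, 1.61, 1.07 and 0.86 in ZnO 16 cultures, against 5.03, 4.94, 4.83 and 4.64 in ZnO 4 cultures (difference -3.53 ± 0.20, adjusted p = 9.36e-07). Rpl27a, the parent, had 7.31, 7.59, 6.87 and 6.60 in ZnO 16 cultures, against 8.15, 8.12, 7.91 and 7.79 in ZnO 4 cultures (difference -0.89 ± 0.21, adjusted p = 0.00771). Neither gene's doses overlapped, and the copy's difference minus the parent's was -2.63. The direction of this contrast rests on the probe: another Rpl27a probe gave -3.84, below the copy, and the remaining one gave -0.19. Rpl17l5 had -0.69, -1.16, -1.38 and -1.11 in ZnO 16 cultures, against 2.26, 1.91, 2.01 and 1.89 in ZnO 4 cultures (difference -3.10 ± 0.16, adjusted p = 6.65e-07). Rpl17, a protein that lines the peptide exit tunnel, had 5.82, 6.02, 5.71 and 5.35 in ZnO 16 cultures, against 6.33, 6.21, 6.17 and 6.09 in ZnO 4 cultures (difference -0.48 ± 0.15, adjusted p = 0.0288). Here too the doses of both genes were apart, and copy minus parent was -2.62, but the Rpl17 call was lost in 7 of 12 fits with an array or number left out and its other probe differed by 0.01.

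**Figure D1:**
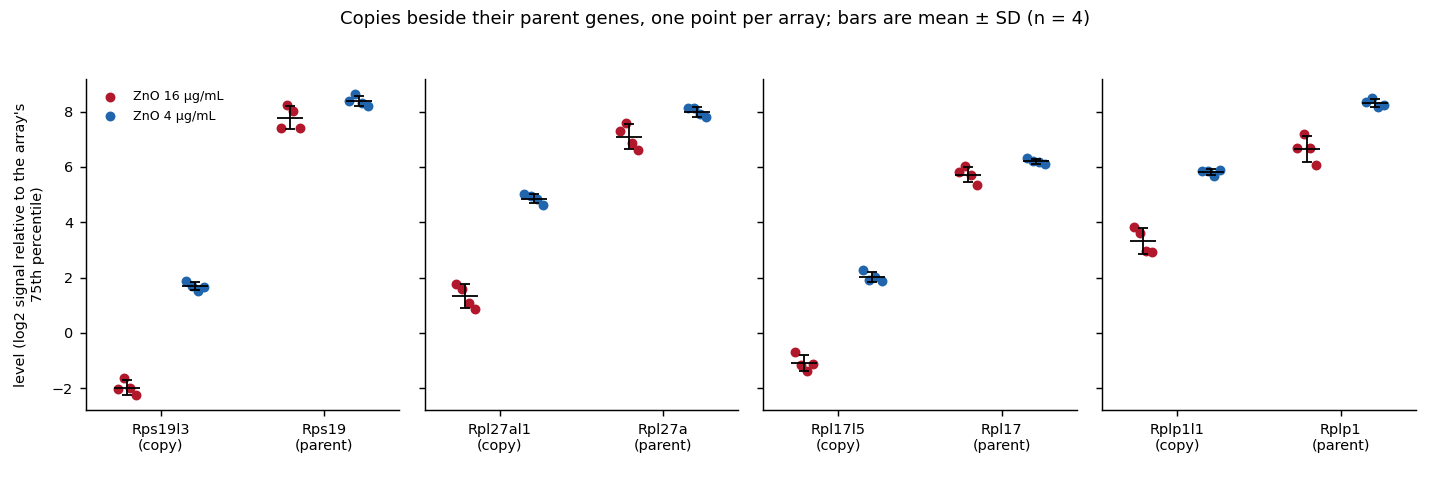
Levels of the 4 copies with the lowest differences and of their parents; the y axis is the log2 signal relative to the array's 75th percentile, each point is an array, and bars give mean ± SD (n = 4 per dose). All 4 copies are separated between doses; of the parents, Rps19 overlaps. Levels of different probes are not comparable with each other.

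Rplp1l1 is named as a copy of Rplp1, the acidic stalk protein that helps recruit translation factors, and this pair was low together. The copy had 3.85, 3.60, 2.96 and 2.92 in ZnO 16 cultures, against 5.87, 5.85, 5.66 and 5.87 in ZnO 4 cultures (difference -2.48 ± 0.20, adjusted p = 9.72e-06). Rplp1 itself had 6.68, 7.19, 6.67 and 6.06 in ZnO 16 cultures, against 8.34, 8.49, 8.16 and 8.23 in ZnO 4 cultures (difference -1.66 ± 0.22, adjusted p = 0.000234). Both were separated between doses, copy minus parent was -0.82, and Rplp1 had the lowest difference of any parent by the probes that stood for each gene.

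The remaining copies differed less or were dim. Rpl36al1, whose older symbol is Rpl36al, had 2.15, 1.80, 1.72 and 1.92 in ZnO 16 cultures, against 3.39, 3.13, 3.24 and 3.42 in ZnO 4 cultures (difference -1.40 ± 0.13, adjusted p = 2.05e-05), where its parent Rpl36a gave -0.25 ± 0.13 (adjusted p = 0.138). Rps12l4 was well above background on 1 of 4 arrays at ZnO 16 and on 3 of 4 at ZnO 4. Its levels of -6.68, -5.96, -5.27 and -3.95 in ZnO 16 cultures overlapped -4.42, -3.54, -3.24 and -4.25 in ZnO 4 cultures, and its difference of -1.60 ± 0.56 (adjusted p = 0.0404) turned to 0.25 with normexp background correction. Rpl37l1, whose older symbol is Rpl37, differed by -0.58 ± 0.18 (adjusted p = 0.0269). The other copies did not pass the test: Rpl30l3 (-0.42 ± 0.21), Rpl37al3 (-0.04 ± 0.16) and Rpl39l1 (0.34 ± 0.16, with the parent Rpl39 at -0.58 ± 0.14). Rpl39l1 was called higher without ZnO 16 replicate 1 and with median scaling, and its sign turned without scaling and with spike-in scaling.

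Naming and annotation bear on this class. Rpl36al1, Rpl37l1 and Rpl39l1 carry numbered symbols in the current RefSeq table, but their older symbols are those of a parent or of a conserved paralogue. Without them, a choice made after seeing the data, 5 of 7 copies were called lower and their median difference was -2.48. The 4 copies with the lowest differences were all on predicted (XM) accessions. On such accessions 24.2% of all genes tested were called lower, against 16.5% on curated (NM) ones. The other measured copies on XM accessions, Rpl30l3 and Rpl37al3, were not called. Of the copies on NM accessions 3 were called lower (Rps12l4, Rpl36al1 and Rpl37l1), and only Rpl39l1 was not.

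Among paralogues, Rpl22l1 had -0.81, -0.99, -0.85 and -1.45 in ZnO 16 cultures, against 1.29, 0.98, 1.31 and 1.22 in ZnO 4 cultures (difference -2.22 ± 0.16, adjusted p = 4.99e-06). Its doses did not overlap, but a second probe of the gene gave -0.05 ± 0.21. Rpl22, the parent whose protein is known in mouse to restrain Rpl22l1, differed by -0.19 ± 0.13 (adjusted p = 0.244). Rps27l, a relative of Rps27 induced by p53 in human and mouse cells, had 5.17, 4.99, 4.99 and 5.12 in ZnO 16 cultures, against 5.36, 5.14, 5.12 and 5.21 in ZnO 4 cultures (difference -0.14 ± 0.11, adjusted p = 0.336). Rpl3l, the striated muscle form of Rpl3, was dim and differed by 0.16 ± 0.32.

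**Figure D2:**
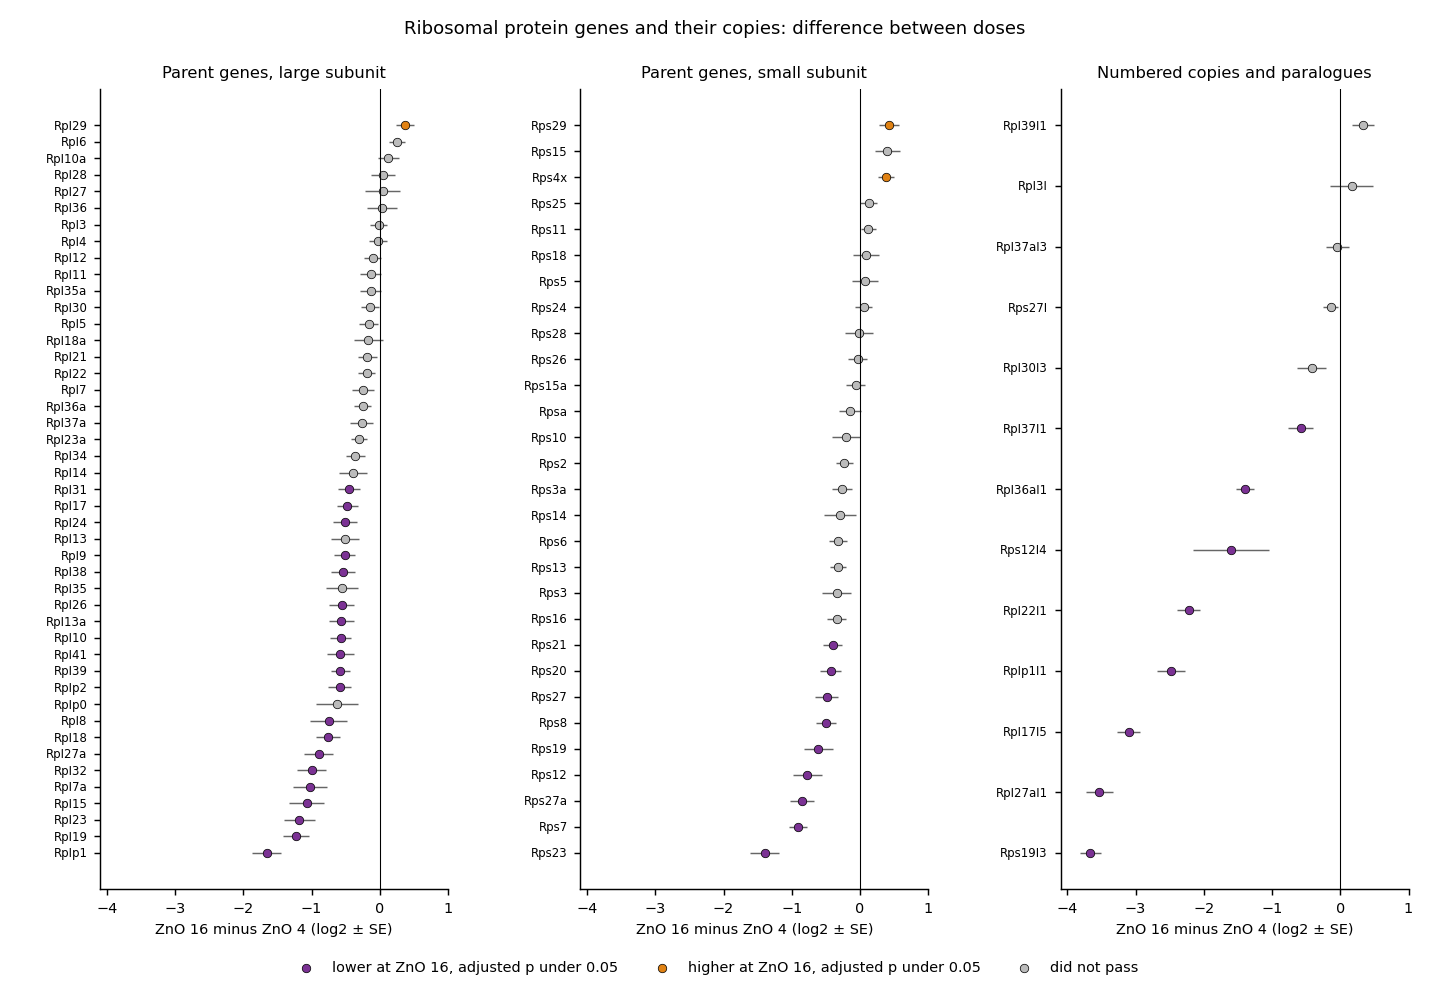
Difference between doses for the measured genes reported here: the x axis is ZnO 16 minus ZnO 4 (log2) with its SE, and colours mark genes called at an adjusted p under 0.05. By the brightest probe of each gene, parents run between -1.66 and 0.42, while copies and paralogues reach -3.66. Over all probes, parents reach -3.84.

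Parent genes were more often called lower than higher at the higher dose, by a count that depended on the scaling. Of 75 parents 29 were called lower, 3 higher and 43 did not pass, with a median difference of -0.32, where 21.9% of all genes were called lower and 19.8% higher. All genes here include 5484 features without a symbol. Among the 7980 genes with a symbol, 16.8% were called lower and 23.5% higher. All ZnO 16 arrays lay below all ZnO 4 arrays for 26 parents and above them for 4 (21.4% and 18.5% of all genes). For the large subunit the counts were 20 lower and 1 higher of 45 (median -0.45), and for the small subunit 9 lower and 2 higher of 30 (median -0.25). Quantile normalization, which forces one distribution on all arrays, gave 18 lower, 9 higher and a median of -0.03. With no scaling 62 were lower and 0 higher, with spike-in scaling 63 and 0, with median scaling 22 and 5, and with normexp background correction 44 and 0. The share of all genes called lower was 21.4% with quantile normalization, 32.8% with no scaling, 37% with spike-in scaling, 14.7% with median scaling and 14.8% with normexp. Called higher, of all 13464 genes, were 2940 with quantile normalization, 3408 with median scaling and 2781 with normexp. Only 230 were called higher with no scaling and 228 with spike-in scaling. The median of all genes itself moved to -0.75 without scaling, -0.79 with spike-in scaling, 0.17 with median scaling and 0.15 with normexp. Relative to it, the parents' median was -0.32, -0.32, -0.32 and -0.55 in that order, and -0.05 with quantile normalization. Under these 5 alternatives and the setting used throughout, 16 parents and 6 copies were called lower every time, and 0 parents were called higher every time. How many of all genes were called lower every time was not counted, so these numbers have no background share. The brightest probe was chosen anew in each setting, so they do not always follow the same probe. Rpl27a, for one, was read from another probe with normexp. Differences of 62 parents lay within the range of the spike-in probes, and 13 parents and 6 copies were below it.

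Single arrays also moved the parents' count. Leaving out ZnO 4 replicate 1, 2 or 3 left 15, 17 or 18 of 75 parents called lower, beside 17.8%, 18.7% or 18.2% of all genes. Leaving out ZnO 16 replicate 1 or 3 left 19 or 18 parents, beside 21.5% or 19.7% of all genes. Without ZnO 16 replicate 2 the count was 38, beside 21.3% of all genes. Leaving out replicate number 1 or 3 at both doses left 12 parents each time, beside 17.4% or 16.5% of all genes. Within the ZnO 16 arrays replicate 2 was the highest for 65 of 75 parents and replicate 4 the lowest for 50. The parents' median level was 7.06, 7.49, 7.14 and 6.81 in ZnO 16 cultures, against 7.58, 7.71, 7.50 and 7.54 in ZnO 4 cultures, so the lowest ZnO 4 array exceeded the highest ZnO 16 array by little. The 75th percentile signal used for scaling was 374, 151, 190 and 381 on the ZnO 16 arrays, against 516, 313, 479 and 428 on the ZnO 4 arrays, and its part in the result was not tested. The median SD of a parent was 0.28 at ZnO 16 and 0.14 at ZnO 4. The copies' median level was 1.89, 1.70, 1.39 and 1.75 in ZnO 16 cultures, against 2.83, 2.63, 2.62 and 2.80 in ZnO 4 cultures.

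**Figure D3:**
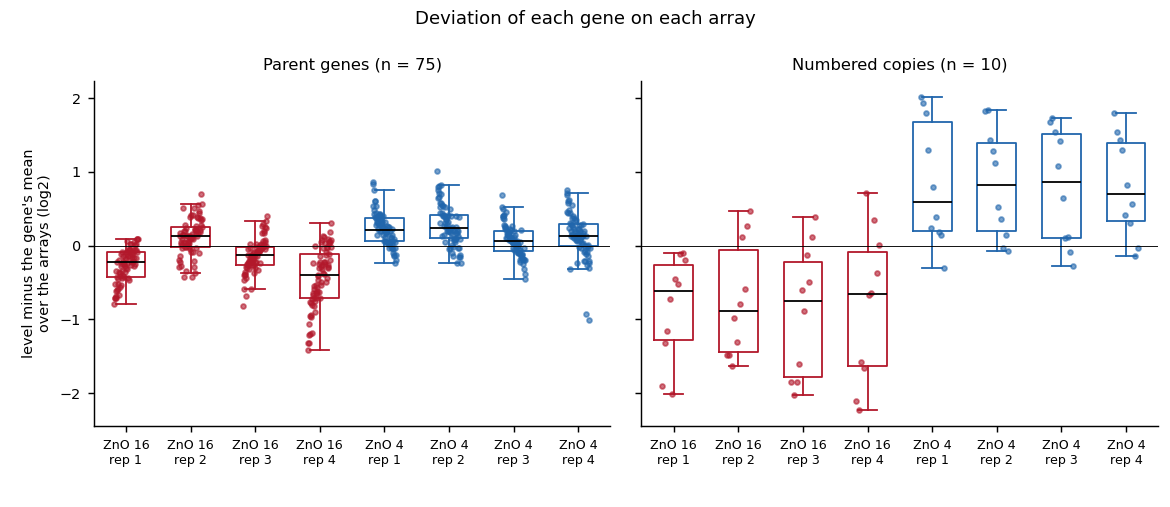
Level of each gene on each array minus its mean over the arrays (log2), ZnO 16 arrays in red and ZnO 4 arrays in blue; boxes show quartiles, lines the median and points the genes. Parents shift together from array to array, with ZnO 16 replicate 2 high and replicate 4 low, while the copies' medians separate between doses.

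The stalk proteins Rplp0, Rplp1 and Rplp2 form the arm of the large subunit that binds translation factors. Rplp2 had 7.55, 7.95, 7.67 and 7.25 in ZnO 16 cultures, against 8.24, 8.34, 8.11 and 8.10 in ZnO 4 cultures (difference -0.59 ± 0.17, adjusted p = 0.0169). Rplp0, the base of the stalk, had 8.20, 9.17, 8.53 and 7.47 in ZnO 16 cultures, against 8.80, 9.36, 8.77 and 8.95 in ZnO 4 cultures. Its ZnO 16 arrays spread widely and overlapped the other dose, and the difference of -0.63 ± 0.31 did not pass (adjusted p = 0.131). Rplp1 and Rplp2 were called lower under all scalings run.

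Other large-subunit genes with low values were Rpl19, Rpl23 and Rpl15. Rpl19, which bridges the subunits, had 6.60, 7.09, 6.86 and 6.26 in ZnO 16 cultures, against 7.86, 8.11, 7.72 and 8.03 in ZnO 4 cultures (difference -1.23 ± 0.19, adjusted p = 0.00065). Rpl23, one of the ribosomal proteins known to bind Mdm2, had 6.48, 6.86, 6.61 and 5.68 in ZnO 16 cultures, against 7.76, 7.64, 7.50 and 7.46 in ZnO 4 cultures (difference -1.18 ± 0.23, adjusted p = 0.00246). In both genes every ZnO 16 array was below every ZnO 4 array. Rpl15, a structural protein of the large subunit, had 6.79, 7.67, 7.12 and 6.29 in ZnO 16 cultures, against 7.99, 8.32, 7.91 and 7.94 in ZnO 4 cultures (difference -1.07 ± 0.26, adjusted p = 0.0081). The other Rpl15 probe gave -0.13, whereas the other Rpl19 probe gave -2.05. Rpl10, which joins the large subunit last, Rpl13a, Rpl26, Rpl39 and Rpl41 lay between -0.58 and -0.56 and were called lower. Leaving out an array or number lost the call in 10 of 12 fits for Rpl13a and Rpl41, in 8 for Rpl26, in 1 for Rpl10 and in 0 for Rpl39. The Rpl39 call was, however, lost with median scaling, quantile normalization and normexp, and its 4 probes ran between -0.81 and 0.19. The Rpl13a value was the lowest of 4 probes, which reached 0.003, whereas the other Rpl10 probe gave -1.76.

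Other large-subunit proteins did not pass. Rpl5 and Rpl11, which carry the small ribosomal RNA of the large subunit and bind Mdm2, differed by -0.17 ± 0.14 and -0.13 ± 0.15. Rpl3, near the peptidyl transferase centre, had 7.03, 7.27, 7.11 and 7.10 in ZnO 16 cultures, against 7.12, 7.31, 7.07 and 7.06 in ZnO 4 cultures (difference -0.01 ± 0.12). Rpl6 (0.25 ± 0.12), Rpl10a (0.12 ± 0.15) and Rpl28 (0.04 ± 0.18) had positive differences that did not pass. Rpl29 was called higher, with 7.27, 7.53, 7.43 and 7.23 in ZnO 16 cultures, against 7.15, 7.03, 6.86 and 6.95 in ZnO 4 cultures (difference 0.37 ± 0.13, adjusted p = 0.0457), a direction that turned without scaling (-0.39) and with spike-in scaling (-0.43). Its call was also lost with normexp (0.13, adjusted p = 0.367) and in 11 of 12 fits with an array or number left out. For Rpl14, named for its missing value, a spot on ZnO 16 replicate 4 was marked as an outlier, so its -0.39 ± 0.21 rests on 3 arrays at that dose.

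In the small subunit Rps23, a protein of the decoding centre, had the lowest difference by the probes that stood for each gene. It had 4.88, 5.40, 5.00 and 4.27 in ZnO 16 cultures, against 6.43, 6.34, 6.11 and 6.28 in ZnO 4 cultures (difference -1.40 ± 0.21, adjusted p = 0.000574). Rps7, another Mdm2-binding protein, had 5.27, 5.33, 5.17 and 4.85 in ZnO 16 cultures, against 6.22, 5.92, 6.03 and 6.10 in ZnO 4 cultures (difference -0.91 ± 0.14, adjusted p = 0.000613). Doses were apart in both. Rps27a, made as a fusion to ubiquitin, had 7.14, 7.70, 7.44 and 6.96 in ZnO 16 cultures, against 8.11, 8.18, 7.99 and 8.36 in ZnO 4 cultures (difference -0.85 ± 0.18, adjusted p = 0.00417). Rps12 differed by -0.78 ± 0.21 (adjusted p = 0.0143), and the zinc-finger protein Rps27 by -0.49 ± 0.17 (adjusted p = 0.0395). Under quantile normalization another of the Rps27 probes was the brightest, and it gave 0.12. The Rps27 call was lost in 11 of 12 fits with an array or number left out, where its difference lay between -0.61 and -0.13.

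Rps29 and Rps4x were called higher. Rps29, a small zinc-binding protein, had 8.05, 8.21, 8.36 and 8.04 in ZnO 16 cultures, against 7.82, 7.72, 7.50 and 7.92 in ZnO 4 cultures (difference 0.42 ± 0.15, adjusted p = 0.0425), which turned without scaling (-0.33), with spike-in scaling (-0.37), with normexp (-0.14) and with the mean of its probes (-0.35). Rps4x had 4.92, 5.19, 4.82 and 5.14 in ZnO 16 cultures, against 4.60, 4.71, 4.64 and 4.62 in ZnO 4 cultures (difference 0.38 ± 0.12, adjusted p = 0.0277), which turned without scaling (-0.38) and with spike-in scaling (-0.42). With normexp Rps4x was at 0.14 (adjusted p = 0.435). Both had non-overlapping doses in the setting used throughout, but leaving out an array or number lost the call in 9 of 12 fits for Rps29 and 8 of 12 for Rps4x. Rps15 differed by 0.40 ± 0.18 and did not pass. Low-signal areas held 18 of 830 member spots on ZnO 16 replicate 4 and 63 on ZnO 4 replicate 4. Rps3 (-0.34 ± 0.21), the S6 kinase substrate Rps6 (-0.32 ± 0.13), Rps14 (-0.29 ± 0.23), Rps10 (-0.21 ± 0.20) and Rpsa (-0.15 ± 0.16) did not pass either.

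Probes of a single gene did not always give the same answer. Among 53 parents with at least 2 measured probes, the range between the highest and lowest difference of a gene had a median of 0.61 and was 1 or more in 11 (20.8%), compared with a median of 0.49 and 22.1% over 1443 such genes with a symbol. With every probe as its own feature, 81 of 183 parent probes were called lower and 7 higher, and 8 of 11 copy probes were called lower, where 21.7% of all probes were lower and 20% higher. The genes named next were picked for their spread after their values were seen. The 3 probes of Rpl27a gave -3.84 ± 0.28, -0.89 ± 0.21 and -0.19 ± 0.16. Those of Rpl7 (6 probes) ran between -2.69 and -0.25, those of Rps27a (4 probes) between -2.44 and -0.24, and those of Rpl32 (6 probes) between -2.69 and -0.65. So the size of the difference of a gene depended on which probe stood for it. The brightest probe, which stood for its gene, had the highest difference in 22 of the 53 parents and the lowest in 14. These are 41.5% and 26.4%, against 44.1% and 48.5% over the 1443 genes. The sets were not matched for probes per gene, on which these shares and the range depend. With 2 probes the brightest must be the highest or the lowest, and parents had up to 7. In 2 parents, Rps10 (-0.76 to 0.72) and Rps29 (-0.93 to 0.42), different probes were called in opposite directions. By contrast the probes of Rpl29 (0.34 to 0.40), Rplp2 (-0.59 and -0.58) and Rpl26 (-0.56 and -0.50) lay close together. The probe sequences were not used here, so how far a probe also binds transcripts of a near-identical copy was not tested.

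**Figure D4:**
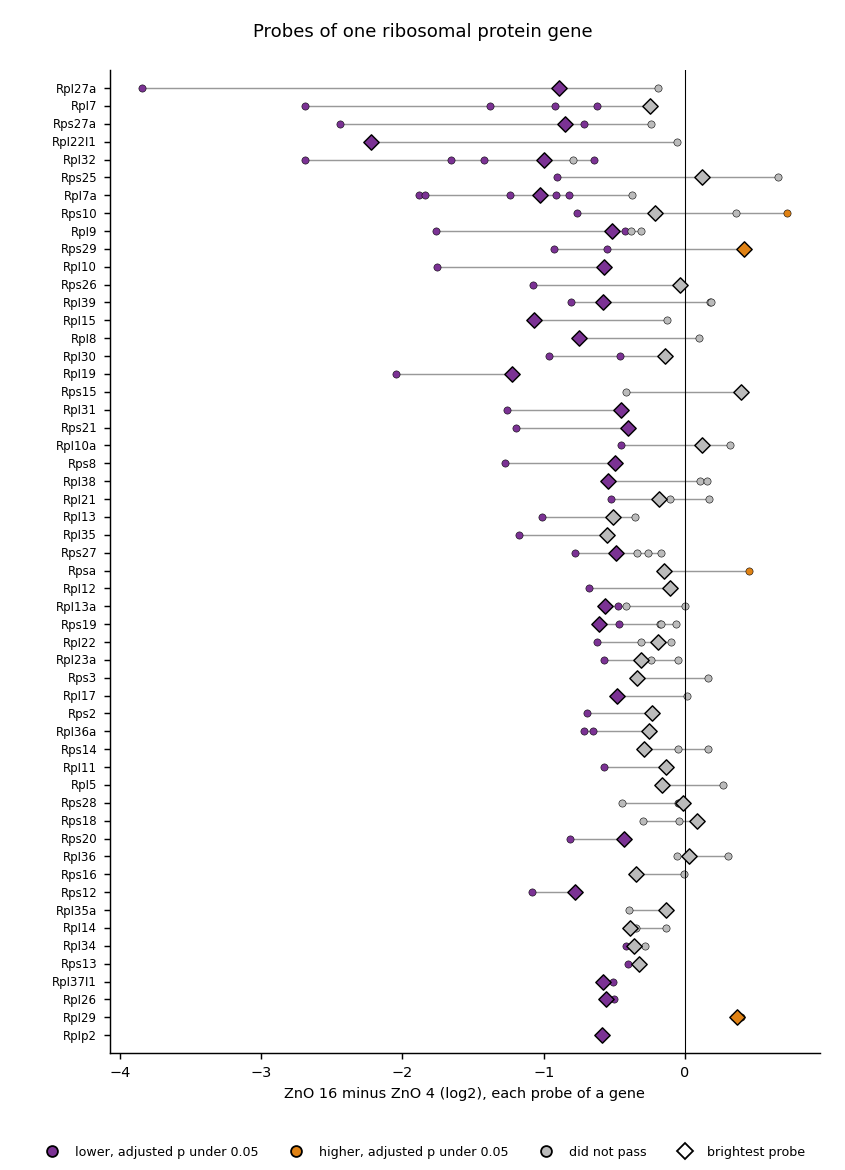
Each probe of the member genes reported here that had at least 2 measured probes: the x axis is ZnO 16 minus ZnO 4 (log2), the diamond is the brightest probe, which stood for its gene, and colours mark calls at an adjusted p under 0.05 in the fit of all probes. Rpl27a, Rpl7 and Rps27a have the widest ranges, and Rplp2 the narrowest.

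Other genes, listed for cytosolic translation, TOP transcripts or a ribosomal protein fused to a ubiquitin-like protein, were called in both directions. Of 21 measured, 3 were called lower and 3 higher, with a median difference of -0.07, where 21.9% of all genes were called lower and 19.8% higher. Those named were picked after their values were seen. Eef1b2 (-0.68 ± 0.13), Hnrnpa1 (-0.59 ± 0.13) and the poly(A)-binding protein Pabpc1 (-0.55 ± 0.13) were lower. Elongation factor Eef2 had 5.77, 6.09, 6.01 and 5.85 in ZnO 16 cultures, against 4.87, 5.13, 4.97 and 5.42 in ZnO 4 cultures (difference 0.83 ± 0.15, adjusted p = 0.00155). Naca (0.49 ± 0.12) and Eif3l (1.83 ± 0.54) were also higher, Eif3l with ZnO 4 replicate 4 at -1.50 and the other ZnO 4 arrays at 1.20 to 1.38. Without scaling, 10 of the list were called lower and 0 higher, where 32.8% of all 13464 genes were called lower and only 230 genes higher. Fau, a small-subunit protein made as a fusion, differed by -0.36 ± 0.14 (adjusted p = 0.0573) and did not pass. The elongation factor subunits Eef1a1 (-0.12 ± 0.14) and Eef1g (-0.24 ± 0.17) did not pass either.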

How the data were processed

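Gene expression was measured in 8 samples, 4 per dose, each with its own file. The authors deposited 1-colour scanner output made with Feature Extraction (version 11.0.1.1 in the submitters' processing notes). Its processed signal is a linear intensity which, per the file headers, had background subtracted and spatial trends removed. No normalization between arrays is recorded. Accessions were named through a RefSeq table of assembly GRCr8. Flagged spots were left out, log2 signals were set against the 75th percentile of the non-control spots of their array, and spots of a probe were averaged. A probe was kept when more than 0.5 of its spots were well above background on at least 3 of 4 arrays of a dose, and the brightest probe stood for its gene. No member spot was saturated (0 flagged). Differences were tested across all 13464 genes with limma 3.58.1 in R 4.3.3 (lmFit, eBayes with intensity trend, two-sided, Benjamini-Hochberg, threshold 0.05), after the fit was tested on simulated data. The number of arrays limits the precision.

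The members and lists were chosen with earlier results of these data known. Genes named were the 4 largest positive and 4 largest negative differences of each subunit's parents, the 5 largest of each sign among copies, parents that differed from their copy in sign or by at least 1, listed genes of known role, the brightest and dimmest member, and genes with probes called both ways (50 genes, 48 measured); Rpl37l1, Rpl30l3, Rpl37al3 and Rpl3l were added to complete their class. Results of 2 of these genes are not reported here. Replicate numbers are shared by the doses, but deviations of same-numbered arrays correlated at 0.25, 0.40, -0.22 and -0.03, so the numbers were not taken as pairs. Alternatives covered scaling, background, filters, probe choice and left-out arrays. Unless probes were averaged or kept apart, each alternative chose the brightest probe anew, so the probe of a gene could change.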

Additional observations from a re-analysis of the deposited data

Results flagged for a closer look

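In 3 of 100 sets of 4 arrays examined (named genes and class medians at each dose), an array lay far from the other 3. Chance alone gives such a gap in about 1 of 20 sets. Rps10 was 9.06 on ZnO 4 replicate 2, with the other ZnO 4 arrays between 8.62 and 8.69. Rps14 was 7.63 on the same array, with the others between 7.12 and 7.19. Rplp1l1 was 5.66 on ZnO 4 replicate 3, with the others between 5.85 and 5.87.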

How the results depend on the processing

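Counts are parents called lower and higher (29 and 3), copies lower and higher (7 and 0) and the translation list lower and higher (3 and 3); given are counts that moved by over 1.5 times, medians that moved beyond the spread between arrays, and counts over all genes. Median scaling gave 5 parents higher, 1 copy higher and a list of 1 lower and 7 higher. Quantile normalization gave parents of 18 and 9 with a median of -0.032, a difference between the medians of parents and copies of 1.47 (1.18 as reported) and 6 list genes higher. No scaling gave parents of 62 and 0, medians of -1.07 for parents and -2.26 for copies, and a list of 10 and 0. Spike-in scaling gave 63 and 0, -1.11, -2.29, and 10 and 0. Normexp gave parents of 44 and 0, a copy median of -1.07, a difference of medians of 0.68 and 5 list genes lower. No filter on dim probes gave parents of 14 and 0 with 39505 genes tested, of which 6.58% were called lower (21.9% as reported). The copy median was then -0.99 and the difference 0.67. Requiring signal on all 8 arrays left 1 parent higher, and keeping flagged spots gave 6 list genes higher. Every probe as a feature gave 81 and 7 parent probes and 9 and 5 list probes, and averaging probes gave 6 list genes lower. Copies on NM accessions gave 3 lower, with only Rpl39l1 not called. Without Rpl36al1, Rpl37l1 and Rpl39l1 the copy median was -2.48 and the difference 2.16, an alternative chosen after seeing the data. The replicate block, a number shared by the doses without pairing them, changed the count of all genes called to 5471 (5614 without it), left 1 parent higher and gave 5 list genes higher. Of all calls, 52.4% were lower, 36.7% with median scaling, 41.8% with normexp, 95% without scaling and 95.6% with spike-in scaling. Leaving out arrays, 1 or a number at a time, gave 3437 to 5529 genes, 12 to 38 parents lower and 0 to 3 higher. In those fits 16.5% to 21.5% of all genes were called lower, and 1367 to 2911 genes were called higher. They gave 5 to 7 copies lower and 0 to 1 higher, with parent medians of -0.41 to -0.28 and copy medians of -1.80 to -1.34. Differences of medians were 0.99 to 1.51, and 3 to 5 list genes were lower and 2 to 5 higher. Signs turned for some named genes: with median scaling Rpl11 (0.036), Rpl3 (0.15), Rpl5 (0.0011), Rps27l (0.026) and Rpsa (0.020); with quantile normalization Rpl11 (0.17), Rpl22 (0.029), Rpl3 (0.24), Rpl5 (0.077), Rps27 (0.12), Rps27l (0.021) and Rpsa (0.18); without scaling and with spike-in scaling Rpl10a (-0.63, -0.67), Rpl28 (-0.71, -0.75), Rpl29 (-0.39, -0.43), Rpl39l1 (-0.42, -0.45), Rpl6 (-0.51, -0.54), Rps15 (-0.36, -0.39), Rps29 (-0.33, -0.37) and Rps4x (-0.38, -0.42); with normexp Rpl10a (-0.0072), Rpl28 (-0.029), Rps12l4 (0.25) and Rps29 (-0.14); and with averaged probes Rpl10a (-0.0039), Rpl5 (0.051), Rps15 (-0.0090), Rps29 (-0.35) and Rpsa (0.15). Leaving out arrays, Rpl3 ran between -0.060 and 0.042 and Rpl28 between -0.088 and 0.15, and 44 of 46 named genes kept their sign. With quantile normalization Rps27 was also read from another probe. The cause of these changes was not tested, beyond the shift of all genes by scaling and the larger number of genes tested without the filter.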
